A study of Mus musculus with 6 samples.

Results

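The genes described here are 34 genes of antioxidant defence and of the NADPH oxidases, chosen by their symbols from an expression table of mouse heart. All 34 were found among the 54352 rows of the table, and all 34 were among the 13094 genes with a mean value high enough to be tested. RNA was sequenced from whole hearts of C57BL/6 mice in 6 libraries, 2 in each of 3 groups. Per the labels' protocols, the T2D dnMCUb group held mice made diabetic (type 2 diabetes, T2D) from 12 weeks of age with a diet giving 60% of calories as fat and 1 injection of streptozotocin, a toxin of pancreatic beta cells, at 75 mg/kg. At 16 to 18 weeks after streptozotocin these mice received, through the jugular vein, an adeno-associated virus (AAV) for FLAG-tagged dominant negative MCUb. MCUb is a subunit of the mitochondrial calcium uniporter, and the protein encoded here carried point mutations. The series description speaks of overexpressed MCUb where the sample labels give dnMCUb, and the groups are named here by the sample labels. The T2D empty vector group had the same diet, injection, schedule and route with an AAV that encoded nothing. Control mice were fed regular chow without any virus, so they differed from both other groups in diet, streptozotocin and virus together. The experiments took place 4 weeks after virus injection, when 5 to 6 months had passed since induction. The heart cells that took up the virus were not given in the sources used here, nor was it stated whether libraries of 1 group are from different animals. P-values therefore measure the spread between these libraries.

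Reactive oxygen species arise in heart cells from the respiratory chain and from dedicated enzymes such as the NADPH oxidases and xanthine oxidase. Superoxide dismutases turn superoxide into hydrogen peroxide, which catalase, glutathione peroxidases and peroxiredoxins then remove. Glutathione and thioredoxin supply the electrons for this and are in turn kept reduced at the expense of NADPH. Many of these genes are targets of the transcription factor NRF2 (gene Nfe2l2), which KEAP1 holds in check until oxidants or electrophiles release it. NRF2 binds DNA with small MAF proteins at a sequence called the antioxidant response element.

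The upstream sequences of 4 members are shown. These members were picked by the rank of their differences, on the rlog scale described below, in comparisons in which no member passed the test. No result below rests on the sequences. Gclm, Txnrd1 and Nqo1 are textbook NRF2 targets and had the 3 lowest member differences in rlog between T2D dnMCUb and T2D empty vector hearts. By the authors' log2 folds Mt2 was lowest there, at -0.31. In the same comparison the NRF2 targets Srxn1, Hmox1 and Gclc differed by -0.09, -0.02 and -0.01. Without T2D empty vector 1, Gclm differed by -0.02 there. Cat had the highest member difference in rlog between T2D empty vector and control hearts, but not the highest of the authors' log2 folds. The sequences are from RefSeq (GRCm38.p6), on the gene's strand, and lie within the 250 bases before the RefSeq start, with exon bases left out. Capitals mark matches to the core of the antioxidant response element, TGACNNNGC, searched on both strands. The Gclm stretch is chr3:122245307-122245556 on the plus strand, and its match lies 134 bases before the start on the opposite strand. The Txnrd1 stretch is chr10:82859009-82859178 on the plus strand, with its match 92 bases before the start, also on the opposite strand. The Nqo1 stretch is chr8:107403207-107403455 on the minus strand and the Cat stretch is chr2:103485161-103485403 on the minus strand, and neither holds a match.
Gclm: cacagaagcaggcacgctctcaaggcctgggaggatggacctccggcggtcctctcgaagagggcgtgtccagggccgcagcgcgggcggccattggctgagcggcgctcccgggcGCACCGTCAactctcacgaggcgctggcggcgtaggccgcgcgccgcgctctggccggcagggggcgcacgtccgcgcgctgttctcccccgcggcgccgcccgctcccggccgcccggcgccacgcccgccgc
Txnrd1: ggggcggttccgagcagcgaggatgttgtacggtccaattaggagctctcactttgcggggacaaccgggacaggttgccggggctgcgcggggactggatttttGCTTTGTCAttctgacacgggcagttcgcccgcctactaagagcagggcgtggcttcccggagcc
Nqo1: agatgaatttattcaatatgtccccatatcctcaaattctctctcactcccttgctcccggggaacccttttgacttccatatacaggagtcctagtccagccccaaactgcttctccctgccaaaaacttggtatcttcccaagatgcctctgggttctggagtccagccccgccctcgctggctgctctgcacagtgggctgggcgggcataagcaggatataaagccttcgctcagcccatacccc
Cat: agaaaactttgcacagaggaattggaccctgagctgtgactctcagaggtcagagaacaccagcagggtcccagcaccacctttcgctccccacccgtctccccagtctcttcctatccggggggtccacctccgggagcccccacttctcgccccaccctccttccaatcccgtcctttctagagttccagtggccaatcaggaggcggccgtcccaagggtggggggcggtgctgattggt

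Read on the reverse strand, the match is TGACGGTGC in Gclm and TGACAAAGC in Txnrd1. Of the 34 members, 28 had a 250-base window in the RefSeq table, and 7 of these 28 (25.0%) held the core: Sod1, Prdx1, Txnrd1, Gclm, Mgst1, Nfe2l2 and Mt2. The core was in 10.2% of all 32851 windows of that length and in 11.5% of the 27025 genes with a window. A match is a run of letters and says nothing of binding, and no match says only that these letters are not in this window.

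The values are regularized log (rlog) values on the log2 scale, deposited by the authors, which draw each library's value towards the gene's mean. Differences between groups are smaller on this scale than in the authors' own log2 folds: the rlog difference was a median 0.465 of the authors' log2 fold in T2D dnMCUb against T2D empty vector, 0.582 in T2D empty vector against control and 0.509 in T2D dnMCUb against control, over the tested genes that the authors' deposited table calls. Differences were tested with limma on all 13094 genes, and a gene passed at an adjusted p under 0.05. The authors' folds and adjusted p-values are named as such wherever they are given. Members are ranked by their rlog differences, and the authors' log2 folds rank them otherwise. In T2D empty vector against control, Cat had the highest rlog difference, 0.26, and an authors' log2 fold of 0.39. Nox4 and Mt2, members at a low level, had rlog differences of 0.11 and 0.07 there and authors' log2 folds of 0.71 and 0.55. The authors' deposited table does not call these 2. No counts are in the table, so depth is unknown.

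Mcub, the gene of the transgene's natural counterpart, was at an rlog of 5.62 and 5.47 in T2D dnMCUb hearts, 5.48 and 5.46 in T2D empty vector hearts and 5.42 and 5.47 in control hearts, so the groups overlapped and the label could not be checked from it. The library T2D dnMCUb 1 stood apart: on the first principal component of the tested genes, which holds 46.69% of the variance, it was at 10.8 and the other 5 libraries at -4.42 to 2.69. Its 10 cardiomyocyte markers summed to 20.7 on the log2 scale, against 21.01 in T2D dnMCUb 2, 20.97 to 20.98 in T2D empty vector hearts and 21.04 to 21.12 in control hearts. Its 8 fibroblast markers summed to 15.43, against 14.88 in T2D dnMCUb 2, 14.8 to 15.13 in T2D empty vector hearts and 14.8 to 14.91 in control hearts, and its 6 atrial markers to 12.36, against 11.04 in T2D dnMCUb 2, 10.97 to 11.03 in T2D empty vector and 11.59 to 11.84 in control hearts. All 10 cardiomyocyte markers were measured above the filter in these whole hearts. None of the 8 neutrophil, 7 lymphocyte and 5 liver markers reached the filter, and Elane of the neutrophil list and Cyp3a11 and Serpina1a of the liver list were listed at 0 in every library. The differences below that this library moves most are given also without it.

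**Figure D1:**
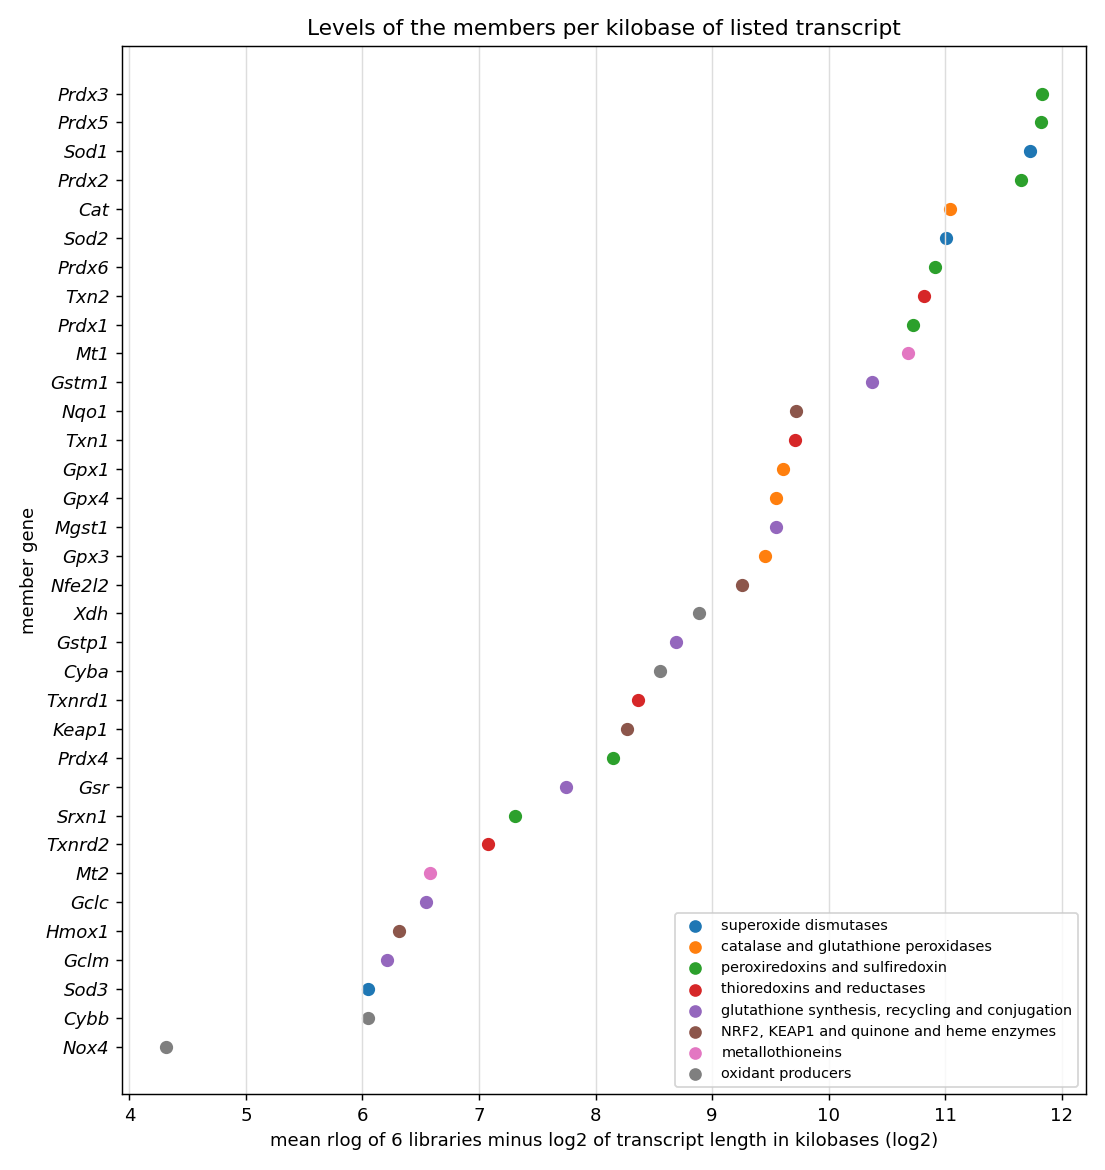
Level of each of the 34 members, one point a gene, coloured by role. The horizontal axis is the mean rlog over 6 libraries minus log2 of the listed transcript's length in kilobases. Prdx3 is highest at 11.83 and Nox4 lowest at 4.31.

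Per kilobase of listed transcript, the most abundant members were enzymes of peroxide and superoxide removal. Prdx3, the mitochondrial peroxiredoxin, was at a log2 level of 11.83, Prdx5, found in mitochondria, peroxisomes and cytosol, at 11.82, the cytosolic copper-zinc dismutase Sod1 at 11.73 and the cytosolic Prdx2 at 11.65. Cat, the peroxisomal enzyme that splits hydrogen peroxide, was at 11.04 and the mitochondrial manganese dismutase Sod2 at 11.01. The ends of the order differ by far more than the spread between libraries, but the neighbours Prdx3 and Prdx5 do not, since each varies more between libraries of a group than their levels differ. The lowest members were Gclm at 6.21, the extracellular dismutase Sod3 at 6.05, the NADPH oxidase subunit Cybb at 6.04 and the oxidase Nox4 at 4.31. Prdx2, Txnrd2, Keap1, Mt2 and Gclm share exon bases with a gene on the opposite strand, and Gclm also with 1 on its own strand. Since the strand setting of the counting was not given in the sources used here, reads of these pairs could not be told apart. Gstm1, Gstp1, Mt1 and Mt2 have near-identical relatives, and their values are uncertain for that reason.

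**Figure D2:**
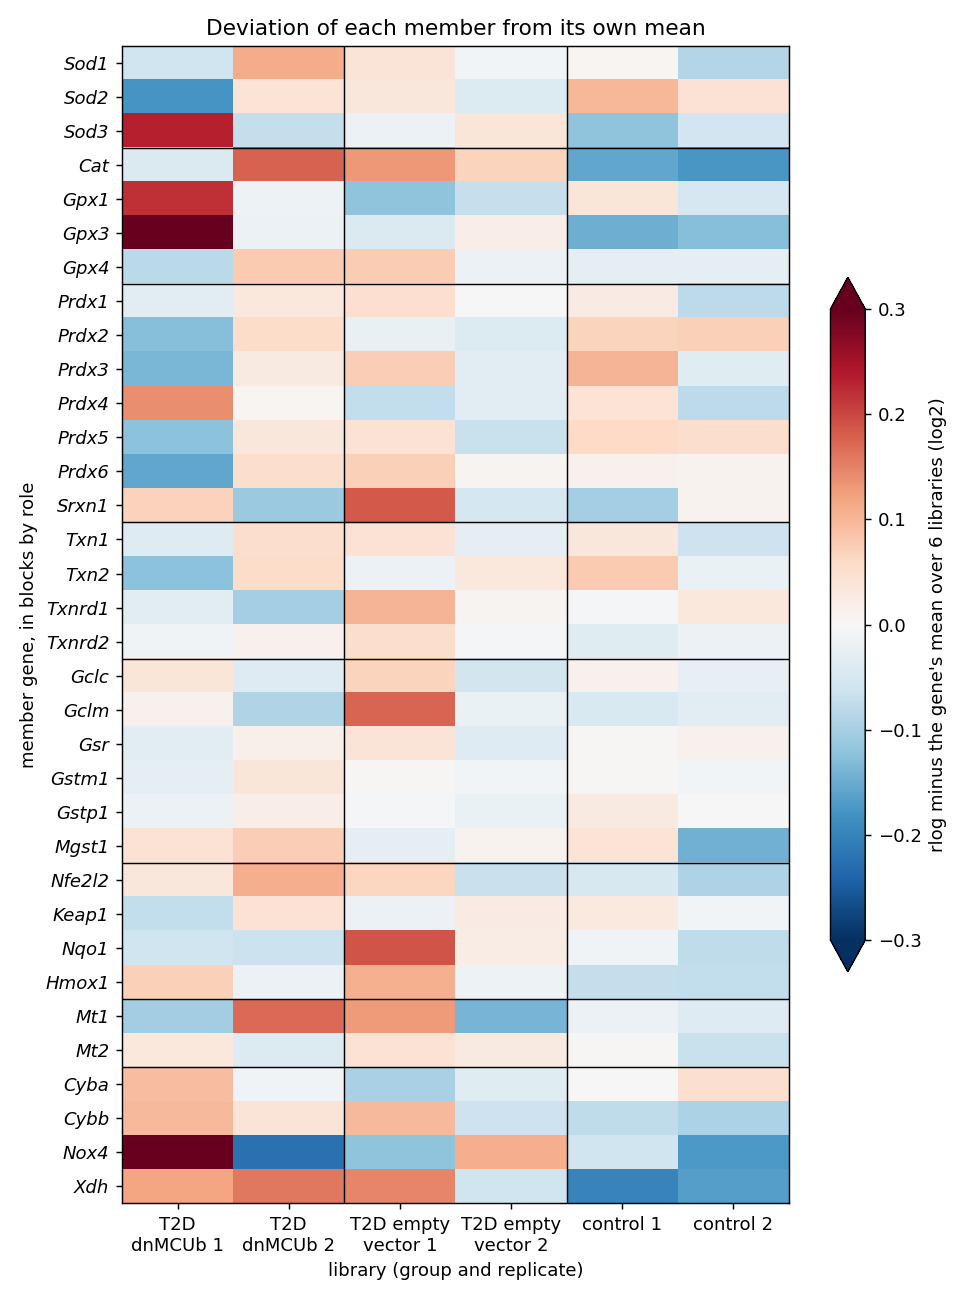
Deviation of each of the 34 members from its own mean over 6 libraries, as rlog on the log2 scale (colour, saturating at 0.3 either way), in blocks by role, with 1 column a library. The column of T2D dnMCUb 1 is the highest of the 6 for 6 members and the lowest for 9, and that of T2D empty vector 1 is the highest for 12.

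The libraries differed among members in ways the groups do not cover. T2D dnMCUb 1 was the lowest of the 6 libraries for 9 members, namely Sod2, Prdx2, Prdx3, Prdx5, Prdx6, Txn2, Gpx4, Gstm1 and Keap1. Of these, Sod2, Prdx3 and Txn2 encode mitochondrial proteins, and the product of Prdx5 is found in mitochondria, peroxisomes and cytosol. The same library was the highest for 6 members, namely Sod3 and Gpx3, which encode secreted enzymes, and Gpx1, Prdx4, Cyba and Nox4. T2D empty vector 1 was the highest for 12 members, among them the NRF2 targets Nqo1, Gclm, Srxn1, Txnrd1, Hmox1 and Gclc. Over all genes tested, libraries deviated from their group's mean with an SD of 0.0675 in T2D dnMCUb hearts, 0.0414 in T2D empty vector hearts and 0.0379 in control hearts.

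No member passed limma in any of the 3 comparisons. In T2D dnMCUb against T2D empty vector hearts, which asks what the mutant MCUb changes in diabetic hearts, 14 members were higher and 20 lower, with a median difference of -0.01, and over all 13094 genes 49.5% were higher. The tally turned round when 1 library was left out: 23 members were higher and 11 lower without T2D dnMCUb 1, and the same counts held without T2D empty vector 1. Here 0 of 13094 genes passed (percent called 0), the smallest adjusted p of a member was 0.869, and 739 genes (5.64%) had an unadjusted p under 0.05. At that unadjusted level 1 member was higher, against 3.12% of all genes, and 2 were lower, against 2.53%. Both T2D dnMCUb libraries lay above both T2D empty vector libraries for 4 members, against 15.6% of all genes, and below them for 2, against 16.5%. The authors' deposited table calls 9 of 28906 genes in this comparison (0.0311%), none of them a member.

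In T2D empty vector against control hearts, which sets diabetic hearts with a virus against untreated ones, 22 members were higher and 12 lower, with a median difference of 0.04. Over all genes 48.2% were higher. Again 0 of 13094 genes passed limma (percent called 0), with 0.722 as the smallest adjusted p of a member, and 803 genes (6.13%) had an unadjusted p under 0.05. At the unadjusted level 4 members were higher (3.26% of all genes) and 0 lower (2.87%). The groups did not overlap for 11 members that were higher, against 19.9% of all genes, and for 6 that were lower, against 22.5%. The authors' deposited table calls 72 of 28255 genes (0.255%), 1 of them a member, Cat. In this comparison, leaving out T2D empty vector 1 gave 18 members higher and 16 lower, with a median member difference of 0.00242.

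In T2D dnMCUb against control hearts 23 members were higher and 11 lower, with a median difference of 0.03, and over all genes 48.5% were higher. Without T2D dnMCUb 2, 17 members were higher and 17 lower. Limma called 9 of 13094 genes (0.0687%), none of them a member, and the smallest adjusted p of a member was 0.171. At an unadjusted p under 0.05, 5 members were higher (5.89% of all genes) and 0 lower (5.54%). The groups did not overlap for 8 members that were higher, against 20.2% of all genes, and 4 that were lower, against 22.7%. The authors' deposited table calls 104 of 29159 genes (0.357%), 1 of them a member, Xdh. The 3 comparisons share libraries, so their values are set side by side and not counted as separate evidence.

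**Figure D3:**
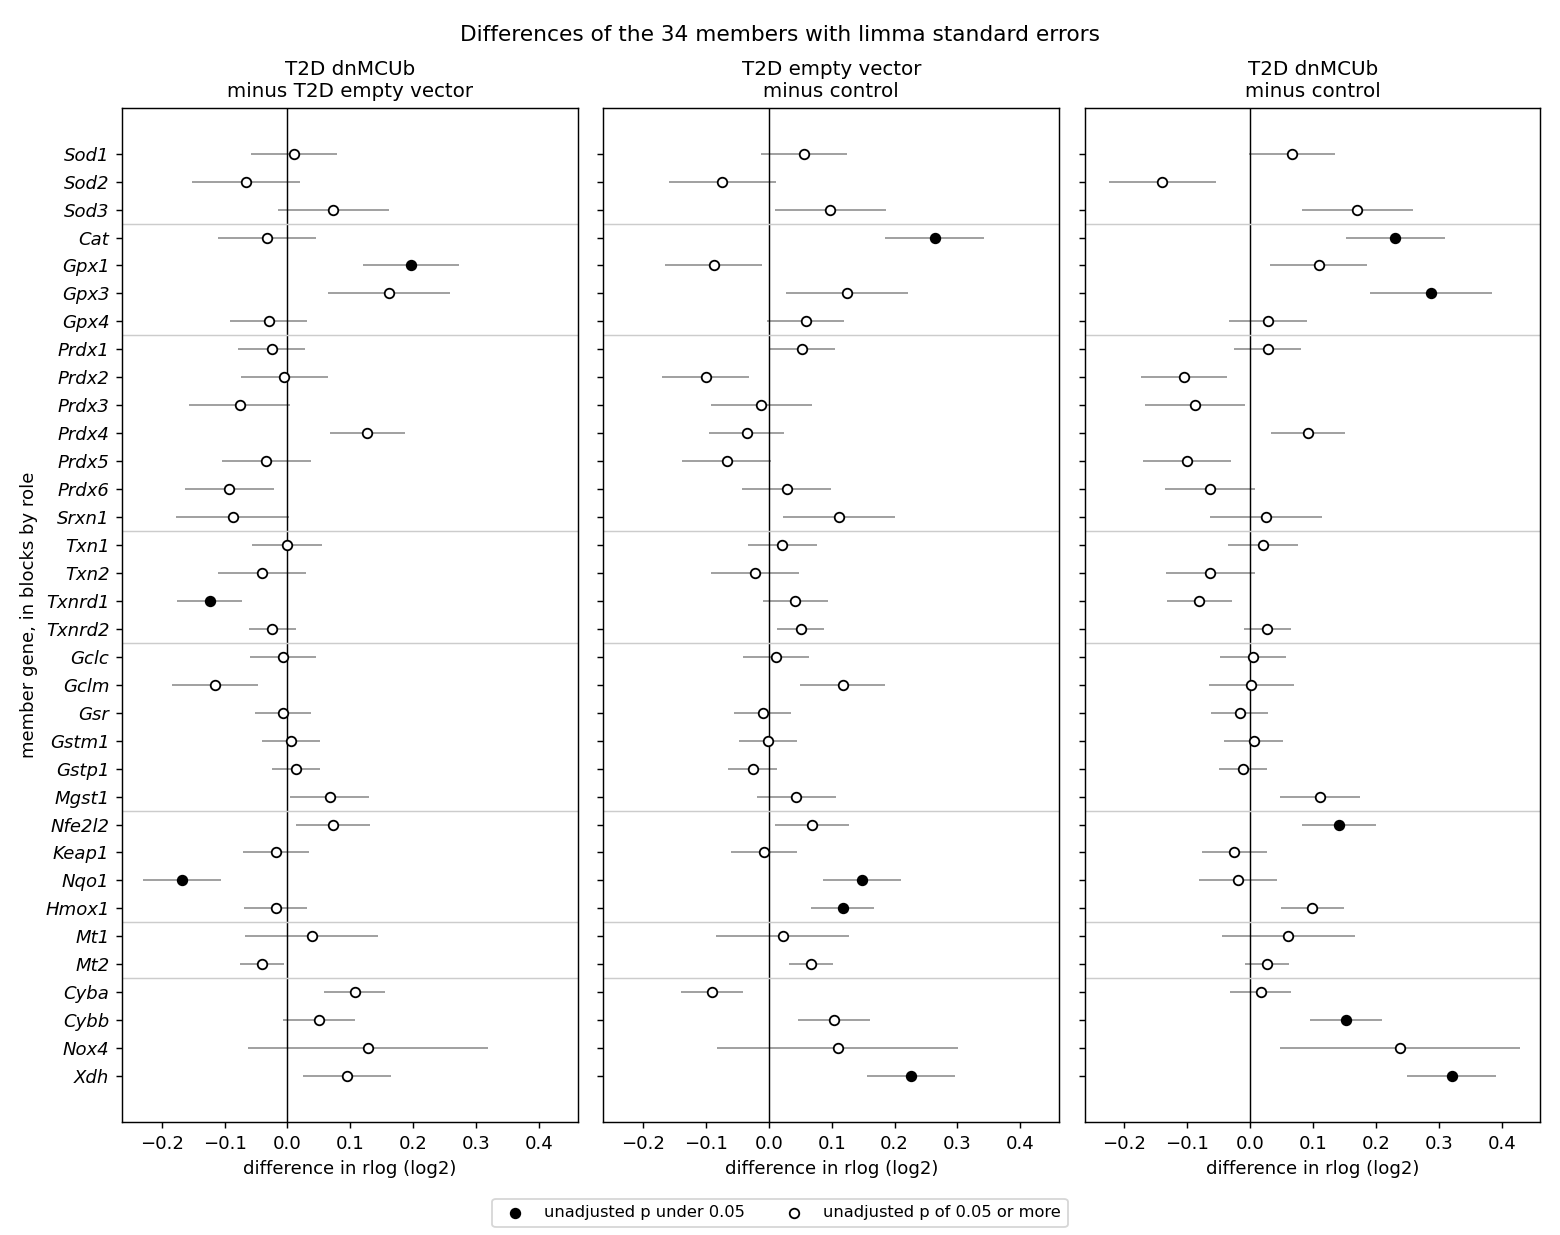
Difference in rlog (log2, horizontal axis) of each of the 34 members in the 3 comparisons, first-named group minus the other, with limma standard errors as bars. Filled points have an unadjusted p under 0.05: 3 members in the first panel, 4 in the second and 5 in the third, and none passed after adjustment over all genes.

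Among the enzymes that remove hydrogen peroxide, Cat and Gpx3 were higher in both diabetic groups than in control hearts. Catalase (Cat, chr2:103453849-103485160, minus strand) was at an rlog of 12.37 and 12.59 in T2D dnMCUb hearts, 12.54 and 12.48 in T2D empty vector hearts and 12.25 and 12.24 in control hearts. All 4 diabetic libraries lay above both control libraries. The T2D empty vector mean of 12.51 ± 0.044 (SD, n = 2) exceeded the control mean of 12.25 ± 0.013 (SD, n = 2) by 0.26 (limma SE 0.0783), with a limma adjusted p of 0.722. In the authors' deposited table, Cat was higher in T2D empty vector than in control hearts by a log2 fold of 0.39 at an adjusted p of 0.00136, so the call depends on which test is used. For T2D dnMCUb against control the difference was 0.23 (SE 0.0783; limma adjusted p 0.333), and the authors' deposited table gives a log2 fold of 0.34 at an adjusted p of 0.443. Without T2D dnMCUb 1 that difference was 0.34 (SE 0.0569; limma adjusted p 0.0459), with 89 genes called (0.68% of those tested), and the lone T2D dnMCUb library was then assumed to vary like the other groups. Between T2D dnMCUb and T2D empty vector the groups overlapped, with a difference of -0.03 (SE 0.0783; limma adjusted p 0.964). In bulk tissue, a change in the share of a cell type and a change of RNA per cell cannot be told apart. All 10 cardiomyocyte markers were lower in T2D dnMCUb than in control hearts (median difference -0.19) and 9 of 10 were lower in T2D empty vector than in control hearts (median -0.11). The lowest marker sum was that of T2D dnMCUb 1, 20.7. That of T2D dnMCUb 2, 21.01, was close to the control range of 21.04 to 21.12. The part of these markers in the results was not tested.

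Gpx3, the glutathione peroxidase secreted into plasma (chr11:54902772-54910377, plus strand), was at an rlog of 10.44 and 10.10 in T2D dnMCUb hearts, 10.08 and 10.14 in T2D empty vector hearts and 9.97 and 9.99 in control hearts. Its T2D dnMCUb mean of 10.27 ± 0.24 exceeded the control mean of 9.98 ± 0.015 (SD, n = 2 each) by 0.29 (SE 0.0971; limma adjusted p 0.333). The high value is that of T2D dnMCUb 1: without this library the difference from control was 0.12 and that from T2D empty vector was -0.00625, against 0.16 with it (SE 0.0971; limma adjusted p 0.888). Without T2D dnMCUb 2 instead, the difference from control was 0.46 (SE 0.0524; limma adjusted p 0.011), in a fit that called 743 genes (5.67%) and took the lone T2D dnMCUb library to vary like the other groups. The fibroblast markers, also highest in T2D dnMCUb 1, were higher for 8 of 8 genes in T2D dnMCUb than in control hearts (median 0.26). The groups did not overlap for 3 of the 8 (20.2% of all genes). The marker sum of T2D dnMCUb 2, 14.88, lay within the range of the control libraries, 14.8 to 14.91. The part of these markers in the result was not tested. Relative to control hearts, T2D empty vector hearts were higher by 0.13 (SE 0.0971; limma adjusted p 0.866).

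Gpx1, the glutathione peroxidase of cytosol and mitochondria (chr9:108339054-108340343, plus strand), was at an rlog of 9.92 and 9.68 in T2D dnMCUb hearts, 9.58 and 9.63 in T2D empty vector hearts and 9.74 and 9.65 in control hearts. It had the highest rlog difference of the 34 members between T2D dnMCUb and T2D empty vector, 0.20 (SE 0.0769), at an unadjusted p of 0.0352 and an adjusted p of 0.869 by limma. The 2 groups did not overlap, and both control libraries lay between T2D dnMCUb 1 and T2D empty vector 2. Without T2D dnMCUb 1 the difference was 0.08. T2D empty vector hearts differed from control hearts by -0.09 (SE 0.0769; limma adjusted p 0.881) and T2D dnMCUb hearts by 0.11 (SE 0.0769; limma adjusted p 0.596). Red cells are rich in Gpx1, as background, and all 5 red cell markers tested were higher in T2D dnMCUb hearts than in T2D empty vector hearts (median difference 0.88). Their sums were 12.47 in T2D dnMCUb 1 and 13 in T2D dnMCUb 2. They were 11.71 to 11.74 in T2D empty vector hearts and 11.72 to 12.64 in control hearts. Of the T2D dnMCUb libraries, that with the higher Gpx1 value had the lower red cell sum. The authors' deposited table calls all 5 red cell markers in T2D dnMCUb against T2D empty vector, and their part in the difference of Gpx1 was not tested. Gpx4, which reduces lipid hydroperoxides and guards against ferroptosis, differed by -0.03 to 0.06 over the 3 comparisons.

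**Figure D4:**
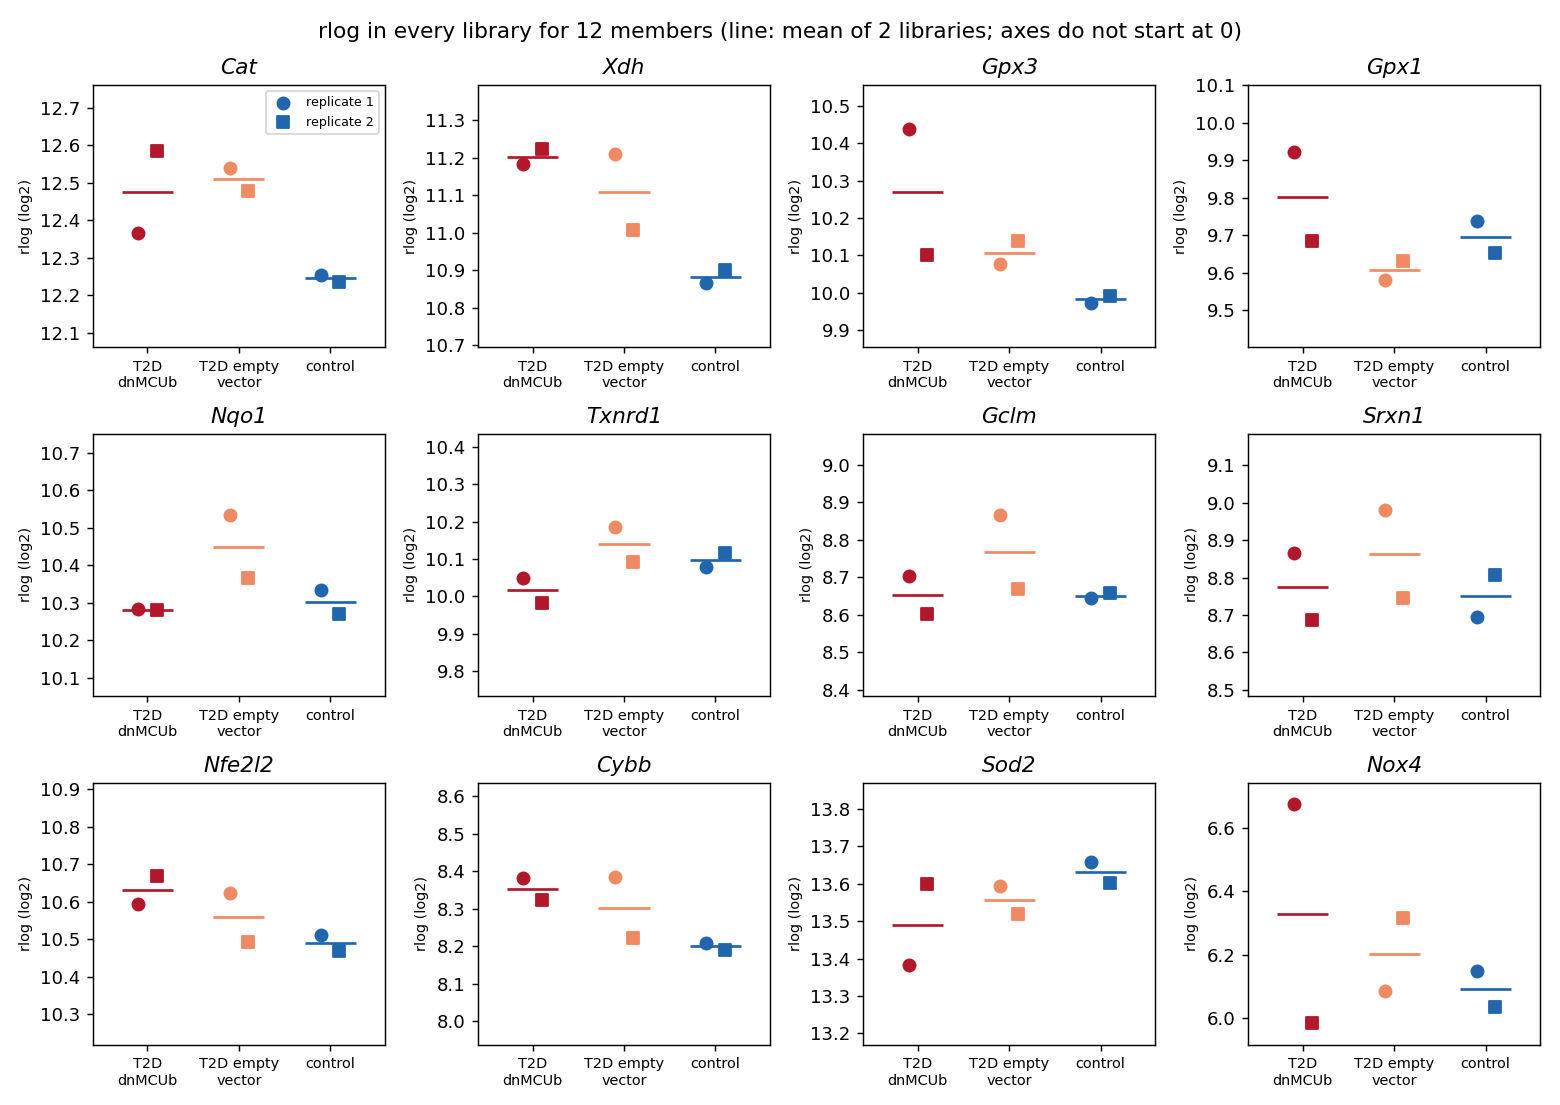
rlog (log2, vertical axes, not starting at 0) in every library for 12 members, with circles for replicate 1, squares for replicate 2 and a line at the mean of 2 libraries. For Cat and Xdh all 4 diabetic libraries lie above both control libraries, and for Nqo1 both T2D empty vector libraries lie above all others.

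The superoxide dismutases did not move together. Sod2, the mitochondrial enzyme (chr17:13007817-13020134, plus strand), was at an rlog of 13.38 and 13.60 in T2D dnMCUb hearts, 13.59 and 13.52 in T2D empty vector hearts and 13.66 and 13.60 in control hearts. It had the lowest member difference between T2D dnMCUb and control hearts, -0.14 (SE 0.0853; limma adjusted p 0.551), and without T2D dnMCUb 1 the difference was -0.03. T2D dnMCUb 2 and control 2 were nearly level, so the groups were hardly apart. Sod3, the extracellular enzyme, was at 8.18 and 7.88 in T2D dnMCUb hearts, 7.93 and 7.99 in T2D empty vector hearts and 7.83 and 7.89 in control hearts. Its difference of 0.17 between T2D dnMCUb and control hearts (SE 0.0884; limma adjusted p 0.501) was 0.02 without T2D dnMCUb 1. Sod1 differed by 0.01 to 0.07 over the 3 comparisons, with overlapping groups in all of them.

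The peroxiredoxins, which reduce peroxides with thioredoxin as electron donor in most cases, and sulfiredoxin (Srxn1), which restores overoxidized peroxiredoxins, were lower in T2D dnMCUb hearts than in T2D empty vector hearts for 6 of 7 members, with a median difference of -0.03. That tally rests on single libraries. Without T2D dnMCUb 1, 6 of 7 were higher and only Srxn1 was lower (median 0.01). Without T2D empty vector 1, 4 were higher and 3 lower (median 0.00461). With all 6 libraries the exception was Prdx4, the peroxiredoxin of the endoplasmic reticulum, at an rlog of 8.26 and 8.12 in T2D dnMCUb hearts, 8.04 and 8.08 in T2D empty vector hearts and 8.16 and 8.04 in control hearts. It was higher in T2D dnMCUb hearts than in T2D empty vector hearts by 0.13 (SE 0.0591; limma adjusted p 0.871), and by 0.06 without T2D dnMCUb 1, and the groups did not overlap. Prdx2 was at 12.10 and 12.28 in T2D dnMCUb hearts, 12.21 and 12.19 in T2D empty vector hearts and 12.29 and 12.30 in control hearts. All 4 diabetic libraries lay below both control libraries, and the difference was -0.10 for T2D empty vector against control (SE 0.0691; limma adjusted p 0.854) and -0.11 for T2D dnMCUb against control (SE 0.0691; limma adjusted p 0.575). Without T2D dnMCUb 1 the second of these was -0.01. Red cells are rich in Prdx2 as well, and all 5 red cell markers tested were lower in T2D empty vector than in control hearts (median difference -0.40) and higher in T2D dnMCUb than in control hearts (median 0.46). The groups did not overlap for 2 of 5 in the first of these comparisons (22.5% of all genes) and for 0 in the second (20.2%). The marker sums were 12.64 in control 1 and 11.72 in control 2, and the part of red cells in the result was not tested. Prdx5 was at 12.02 and 12.18 in T2D dnMCUb hearts, 12.19 and 12.08 in T2D empty vector hearts and 12.20 in both control libraries. Its difference from control was -0.10 in T2D dnMCUb hearts (SE 0.0705; limma adjusted p 0.595), and -0.02 without T2D dnMCUb 1. Prdx1, Prdx3 and Prdx6 differed by -0.09 to 0.05 over the 3 comparisons. Srxn1 was at 8.87 and 8.69 in T2D dnMCUb hearts, 8.98 and 8.74 in T2D empty vector hearts and 8.70 and 8.81 in control hearts, with overlap in every comparison.

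All 4 thioredoxin members were lower in T2D dnMCUb hearts than in T2D empty vector hearts, with a median difference of -0.03, though for 3 of them the groups overlapped. Without T2D dnMCUb 1, Txn1 and Txn2 were higher and 2 of 4 were lower (median 0.02). Without T2D empty vector 1, Txn1 and Txnrd2 were higher and 2 of 4 were lower (median -0.03). The member without overlap was Txnrd1, the cytosolic thioredoxin reductase (chr10:82859179-82897712, plus strand), at an rlog of 10.05 and 9.98 in T2D dnMCUb hearts, 10.19 and 10.09 in T2D empty vector hearts and 10.08 and 10.12 in control hearts. Both T2D dnMCUb libraries lay below the other 4. The difference from T2D empty vector was -0.12 (SE 0.0516) at an unadjusted p of 0.0453 and an adjusted p of 0.869 by limma, and it was -0.16 without T2D dnMCUb 1 and -0.08 without T2D empty vector 1. The difference between T2D dnMCUb and control hearts was -0.08 (SE 0.0516; limma adjusted p 0.564) and that between T2D empty vector and control hearts 0.04 (SE 0.0516; limma adjusted p 0.905). The cytosolic thioredoxin Txn1, the mitochondrial Txn2 and the mitochondrial reductase Txnrd2 differed by -0.06 to 0.05 over the 3 comparisons.

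Among the glutathione genes, Gclm and Mgst1 had the largest differences, each in some comparisons, and the others lay close to level. None had an unadjusted limma p under 0.05. Gclm, the modifier subunit of the ligase that makes the first bond of glutathione (chr3:122245557-122270732, plus strand), was at an rlog of 8.70 and 8.60 in T2D dnMCUb hearts, 8.87 and 8.67 in T2D empty vector hearts and 8.64 and 8.66 in control hearts. The highest value was that of T2D empty vector 1, and T2D empty vector 2 lay between the T2D dnMCUb libraries. The difference between T2D dnMCUb and T2D empty vector was -0.12 (SE 0.0679; limma adjusted p 0.888) and -0.02 without T2D empty vector 1. Between T2D empty vector and control hearts it was 0.12 (SE 0.0679; limma adjusted p 0.841), and 0.02 without that library. The catalytic subunit Gclc, the reductase Gsr and the conjugating enzymes Gstm1 and Gstp1 differed by -0.03 to 0.01 over the 3 comparisons. Mgst1, a membrane-bound conjugating enzyme, was at 9.81 and 9.84 in T2D dnMCUb hearts, 9.73 and 9.77 in T2D empty vector hearts and 9.80 and 9.62 in control hearts. Both T2D dnMCUb libraries lay above the other 4, by 0.07 over T2D empty vector (SE 0.063; limma adjusted p 0.919) and 0.11 over control hearts (SE 0.063; limma adjusted p 0.534), the last of which was 0.02 without control 2.

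Nfe2l2 (chr2:75675513-75704641, minus strand), which encodes NRF2, was at an rlog of 10.59 and 10.67 in T2D dnMCUb hearts, 10.62 and 10.49 in T2D empty vector hearts and 10.51 and 10.47 in control hearts. T2D dnMCUb exceeded control hearts by 0.14 (SE 0.0588) at an unadjusted p of 0.0445 and an adjusted p of 0.421 by limma, without overlap. T2D dnMCUb exceeded T2D empty vector hearts by 0.07 (SE 0.0588; limma adjusted p 0.916), and T2D empty vector exceeded control hearts by 0.07 (SE 0.0588; limma adjusted p 0.875), or 0.00286 without T2D empty vector 1, with overlap in both. Keap1, its repressor, was at 9.86 and 9.98 in T2D dnMCUb hearts, 9.92 and 9.96 in T2D empty vector hearts and 9.96 and 9.93 in control hearts. Its differences ran from -0.03 to -0.01 over the 3 comparisons and turned positive without certain single libraries, up to 0.04.

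Nqo1, a quinone reductase (chr8:107388225-107403206, minus strand), was at an rlog of 10.28 in both T2D dnMCUb libraries, at 10.53 and 10.37 in T2D empty vector hearts and at 10.33 and 10.27 in control hearts. Both T2D empty vector libraries lay above the other 4. It had the lowest rlog difference of the 34 members between T2D dnMCUb and T2D empty vector, -0.17 (SE 0.0623), at an unadjusted p of 0.0287 and an adjusted p of 0.869 by limma. This was -0.17 without either T2D dnMCUb library in turn and -0.08 without T2D empty vector 1. T2D empty vector exceeded control hearts by 0.15 (SE 0.0623; limma adjusted p 0.805), or 0.06 without T2D empty vector 1, and T2D dnMCUb differed from control hearts by -0.02 (SE 0.0623; limma adjusted p 0.92). Hmox1, the inducible heme oxygenase, was at 7.03 and 6.94 in T2D dnMCUb hearts, 7.06 and 6.94 in T2D empty vector hearts and 6.89 and 6.88 in control hearts. All 4 diabetic libraries lay above both control libraries. Relative to control hearts, T2D empty vector hearts were higher by 0.12 (SE 0.0501; limma adjusted p 0.805), or 0.06 without T2D empty vector 1, and T2D dnMCUb exceeded them by 0.10 (SE 0.0501; limma adjusted p 0.493).

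A list of 22 other genes of the NRF2 pathway, 21 of them tested, was read beside these members. In T2D empty vector against control hearts 16 of 21 were higher and 5 lower (median 0.09). Of the 21, 13 were higher without overlap of the groups (19.9% of all genes) and 1 was lower without overlap (22.5%). Against control hearts, T2D dnMCUb hearts had 16 genes higher and 5 lower (median 0.04), with 10 higher without overlap (20.2% of all genes). In T2D dnMCUb against T2D empty vector 12 were higher and 9 lower (median 0.01), and the groups did not overlap for 0 of the genes that were higher (15.6% of all genes) and for 7 that were lower (16.5%). Limma called 0 of 21 in each. Aox1, an aldehyde oxidase, was at an rlog of 9.80 and 9.76 in T2D dnMCUb hearts, 10.05 and 9.89 in T2D empty vector hearts and 9.68 and 9.59 in control hearts, so the 3 groups did not overlap. Its difference was 0.34 for T2D empty vector against control (SE 0.063; limma adjusted p 0.435) and -0.19 for T2D dnMCUb against T2D empty vector (SE 0.063; limma adjusted p 0.869). In the authors' deposited table Aox1 was higher in T2D empty vector than in control hearts by a log2 fold of 0.60 at an adjusted p of 0.0039. Bach1, a repressor that competes with NRF2, was higher in T2D empty vector than in control hearts by 0.15 (SE 0.0534; limma adjusted p 0.804) and differed by -0.13 between T2D dnMCUb and T2D empty vector (SE 0.0534; limma adjusted p 0.869). Ephx1, an epoxide hydrolase, was higher than in control hearts by 0.28 in T2D dnMCUb (SE 0.0632; limma adjusted p 0.183) and by 0.20 in T2D empty vector hearts (SE 0.0632; limma adjusted p 0.762).

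The metallothioneins, cysteine-rich proteins that bind zinc and copper, showed no separation of the groups beyond Mt2 in 1 comparison. Mt1 was at an rlog of 9.70 and 9.98 in T2D dnMCUb hearts, 9.93 and 9.67 in T2D empty vector hearts and 9.79 and 9.77 in control hearts. Its differences were 0.02 to 0.06 over the 3 comparisons (SE 0.106 in each), below the spread within both diabetic groups. Mt2 was at 5.63 and 5.56 in T2D dnMCUb hearts, 5.65 and 5.63 in T2D empty vector hearts and 5.60 and 5.54 in control hearts. T2D empty vector exceeded control hearts by 0.07 (SE 0.035; limma adjusted p 0.817), without overlap. Of 16 other metal-handling genes 13 were tested: 11 were higher and 2 lower in T2D dnMCUb against T2D empty vector (median 0.05), 4 were higher and 9 lower in T2D empty vector against control (median -0.02), and 9 were higher and 4 lower in T2D dnMCUb against control hearts (median 0.05). The importer Slc39a8, which carries zinc and manganese, was at 6.93 and 6.91 in T2D dnMCUb hearts, 6.75 in both T2D empty vector libraries and 6.90 and 6.77 in control hearts. T2D dnMCUb exceeded T2D empty vector hearts by 0.17 (SE 0.0466; limma adjusted p 0.78).

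All 4 members that produce oxidants, or form part of an enzyme that does, were higher in T2D dnMCUb hearts than in T2D empty vector hearts (median 0.10) and higher than in control hearts (median 0.20). The groups did not overlap for 1 of 4 against T2D empty vector (15.6% of all genes) and for 2 of 4 against control hearts (20.2% of all genes). The tallies rest on single libraries: against T2D empty vector, 2 of 4 were higher without T2D empty vector 2, and 3 of 4 without T2D dnMCUb 1 (median 0.04), and against control hearts 2 of 4 were higher without T2D dnMCUb 1 (median 0.04). Xdh, the xanthine dehydrogenase that can turn into an oxidase while making urate (chr17:73883895-73950182, minus strand), was at an rlog of 11.18 and 11.22 in T2D dnMCUb hearts, 11.21 and 11.01 in T2D empty vector hearts and 10.87 and 10.90 in control hearts. All 4 diabetic libraries lay above both control libraries. The T2D dnMCUb mean of 11.20 ± 0.029 exceeded the control mean of 10.88 ± 0.025 (SD, n = 2 each) by 0.32 (limma SE 0.0704). By limma the unadjusted p was 0.00214 and the adjusted p 0.171. This was the highest member difference of any comparison on the rlog scale, but not by the authors' log2 folds, where Nox4 was higher. In the authors' deposited table, Xdh was higher in T2D dnMCUb than in control hearts by a log2 fold of 0.50 at an adjusted p of 0.0145. Relative to control hearts, T2D empty vector hearts were higher by 0.23 (SE 0.0704; limma adjusted p 0.759), for which the authors' deposited table gives a log2 fold of 0.36 at an adjusted p of 0.204. Leaving out any 1 library kept the difference between T2D dnMCUb and control hearts at 0.30 to 0.34, but that between T2D empty vector and control hearts was 0.12 without T2D empty vector 1. T2D dnMCUb exceeded T2D empty vector hearts by 0.09 (SE 0.0704; limma adjusted p 0.906), with overlap, and the difference was -0.00819 without T2D empty vector 2.

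Against control hearts, the NADPH oxidase genes Cybb, Cyba and Nox4 had smaller rlog differences than Xdh. By the authors' log2 folds, given below, Nox4 exceeded Xdh. Cybb, the catalytic subunit NOX2 of the phagocyte oxidase (chrX:9435252-9469324, minus strand), was at an rlog of 8.38 and 8.32 in T2D dnMCUb hearts, 8.38 and 8.22 in T2D empty vector hearts and 8.21 and 8.19 in control hearts. T2D dnMCUb exceeded control hearts by 0.15 (SE 0.0573) at an unadjusted p of 0.0297 and an adjusted p of 0.383 by limma, without overlap. T2D empty vector exceeded control hearts by 0.10 (SE 0.0573; limma adjusted p 0.84), or 0.02 without T2D empty vector 1, and T2D dnMCUb exceeded T2D empty vector hearts by 0.05 (SE 0.0573; limma adjusted p 0.927) with overlap. Cyba, the p22phox subunit that stabilizes NOX2 and NOX4 (chr8:122424776-122432930, minus strand), was at 8.20 and 8.09 in T2D dnMCUb hearts, 8.01 and 8.07 in T2D empty vector hearts and 8.11 and 8.15 in control hearts. T2D dnMCUb exceeded T2D empty vector hearts by 0.11 (SE 0.0488; limma adjusted p 0.871), or 0.06 without T2D dnMCUb 1, and T2D empty vector differed from control hearts by -0.09 (SE 0.0488; limma adjusted p 0.832), both without overlap, while T2D dnMCUb and control hearts differed by 0.02 (SE 0.0488; limma adjusted p 0.908). Macrophages express both subunits, as background, and all 12 macrophage markers were higher in T2D dnMCUb hearts than in T2D empty vector (median 0.13) and than in control hearts (median 0.17). The marker sums were 13.17 to 13.36 in T2D dnMCUb hearts, 13.08 to 13.16 in T2D empty vector hearts and 13.08 to 13.09 in control hearts, and their part in the results on Cybb and Cyba was not tested.

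Nox4, an oxidase that makes hydrogen peroxide without the phagocyte's cytosolic subunits (chr7:87246649-87398710, plus strand), was at an rlog of 6.67 and 5.98 in T2D dnMCUb hearts, 6.09 and 6.32 in T2D empty vector hearts and 6.15 and 6.04 in control hearts. T2D dnMCUb 1 was the highest of the 6 libraries and T2D dnMCUb 2 the lowest, so the groups overlapped. T2D dnMCUb exceeded control hearts by 0.24 (SE 0.191; limma adjusted p 0.642) and T2D empty vector hearts by 0.13 (SE 0.191; limma adjusted p 0.943), but without T2D dnMCUb 1 these differences were -0.11 and -0.22. Without T2D dnMCUb 2 the difference from control was 0.58 (SE 0.0844; limma adjusted p 0.017), in the fit that called 743 genes (5.67%), where T2D dnMCUb 1 stood alone and was assumed to vary like the other groups. Relative to control hearts, T2D empty vector hearts were higher by 0.11 (SE 0.191; limma adjusted p 0.932). The authors' log2 folds of Nox4 were larger: 1.47 for T2D dnMCUb against control, 0.77 for T2D dnMCUb against T2D empty vector and 0.71 for T2D empty vector against control. The authors' deposited table calls Nox4 in none of these.

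The partners of the oxidases were mostly scarce: of 13 listed genes 6 reached the filter, and Nox3 and Noxa1 were listed at 0 in every library. Of the 6, 5 were higher and 1 lower in T2D dnMCUb against T2D empty vector (median 0.05), 3 were higher and 3 lower in T2D empty vector against control (median 0.00497), and 5 were higher and 1 lower in T2D dnMCUb against control hearts (median 0.06). Rac2, a small GTPase of blood cells that activates NOX2, was at an rlog of 5.87 in both T2D dnMCUb libraries, 5.79 and 5.75 in T2D empty vector hearts and 5.77 and 5.72 in control hearts. T2D dnMCUb exceeded T2D empty vector hearts by 0.10 (SE 0.0302; limma adjusted p 0.784) and control hearts by 0.12 (SE 0.0302; limma adjusted p 0.213), without overlap. Ncf1, the p47phox organizer, was at 6.73 and 6.71 in T2D dnMCUb hearts, 6.68 and 6.64 in T2D empty vector hearts and 6.65 and 6.64 in control hearts. Poldip2, which binds the p22phox subunit, was at 10.97 and 11.09 in T2D dnMCUb hearts, 11.13 and 11.12 in T2D empty vector hearts and 11.17 and 11.23 in control hearts, a difference of -0.17 for T2D dnMCUb against control (SE 0.0559; limma adjusted p 0.324).

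**Figure D5:**
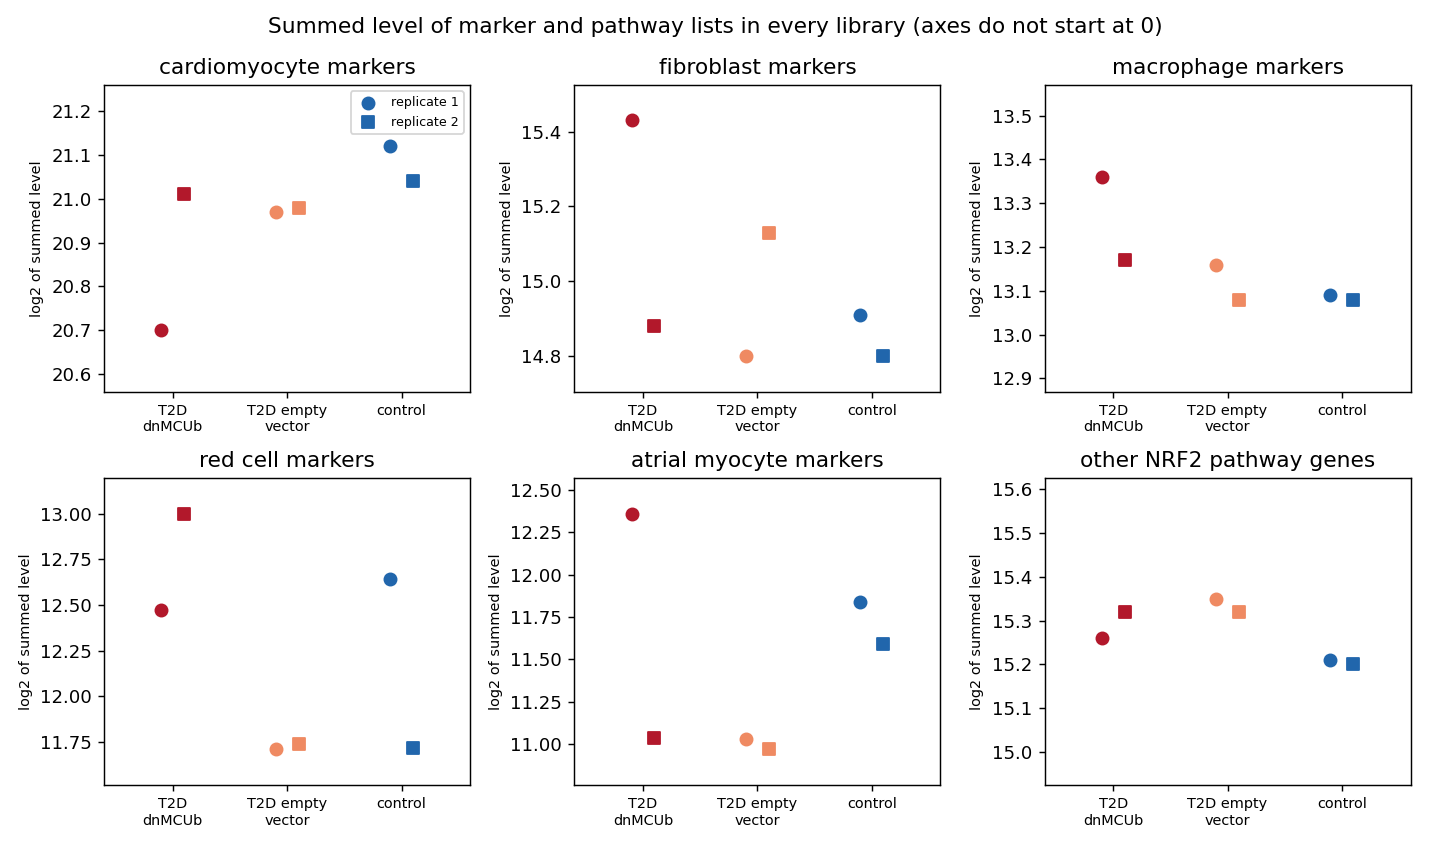
Log2 of the summed level of 5 marker lists and of the other NRF2 pathway genes in every library (vertical axes, not starting at 0), with circles for replicate 1 and squares for replicate 2. T2D dnMCUb 1 is lowest for cardiomyocyte markers at 20.7 and highest for fibroblast markers at 15.43, and both diabetic groups lie above the control libraries for the NRF2 pathway genes.

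The remaining lists of the same pathways held no gene that passed limma in any comparison. Of 17 genes that supply NADPH, 8 were higher and 9 lower in T2D dnMCUb against T2D empty vector, 7 and 10 in T2D empty vector against control, and 7 and 10 in T2D dnMCUb against control hearts. The cytosolic malic enzyme Me1 was at an rlog of 10.05 and 10.12 in T2D dnMCUb hearts, 10.19 and 10.16 in T2D empty vector hearts and 9.96 and 9.90 in control hearts. Me1 was higher by 0.24 in T2D empty vector than in control hearts (SE 0.0474; limma adjusted p 0.448), and the authors' deposited table gives it a log2 fold of 0.42 at an adjusted p of 0.0478. The groups did not overlap in any of the 3 comparisons. Of 29 other glutathione genes 22 were tested, with 8 higher and 14 lower in T2D dnMCUb against T2D empty vector, 8 and 14 in T2D empty vector against control, and 10 and 12 in T2D dnMCUb against control hearts. Of 18 other thioredoxin and repair genes, 7 were higher and 11 lower in T2D dnMCUb against T2D empty vector, 10 and 8 in T2D empty vector against control, and 5 and 13 in T2D dnMCUb against control hearts. Selenop, the secreted carrier of selenium, was at 13.38 and 13.23 in T2D dnMCUb hearts, 13.12 and 13.09 in T2D empty vector hearts and 13.08 and 13.10 in control hearts. T2D dnMCUb exceeded T2D empty vector hearts by 0.21 (SE 0.0694; limma adjusted p 0.869) and control hearts by 0.22 (SE 0.0694; limma adjusted p 0.314), with both of its libraries above the other 4. Msra of the same list went the other way, at 9.44 and 9.41 in T2D dnMCUb hearts, 9.53 and 9.57 in T2D empty vector hearts and 9.48 in both control libraries. At an unadjusted limma p under 0.05, T2D dnMCUb against T2D empty vector had 1 gene of this list higher (3.12% of all genes) and 1 lower (2.53%). Of 19 other sources or regulators of oxidants 14 were tested, with 11 higher and 3 lower in T2D dnMCUb against T2D empty vector, 6 and 8 in T2D empty vector against control, and 11 and 3 in T2D dnMCUb against control hearts. Ucp3, a mitochondrial uncoupling protein of muscle, was at 9.65 and 10.17 in T2D dnMCUb hearts, 9.94 and 9.92 in T2D empty vector hearts and 9.57 and 9.19 in control hearts. It was higher by 0.53 in T2D dnMCUb (SE 0.171; limma adjusted p 0.318) and by 0.55 in T2D empty vector (SE 0.171; limma adjusted p 0.759) than in control hearts, without overlap. Ucp2, its relative of wider expression, was at 7.17 and 7.30 in T2D dnMCUb hearts, 7.11 and 7.16 in T2D empty vector hearts and 7.05 and 6.95 in control hearts, with all 3 groups apart. T2D dnMCUb exceeded control hearts by 0.24 (SE 0.0542; limma adjusted p 0.184).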

How the data were processed

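The authors deposited 1 table of rlog values on the log2 scale for 6 libraries, together with log2 folds, p-values and adjusted p-values of 3 comparisons. Per the labels' protocols, total RNA was depleted of ribosomal RNA and made into stranded libraries. Tools listed in the submitters' processing notes are STAR 2.5.2a, bcl2fastq 2.20.0.422 and DESeq2, and mouse and human builds are listed there without roles. Not given in the sources used here are the counting program and its strand setting. Transcript length is the deposited length in bases. Of 54352 rows, 22778 were at 0 in every library. No value column lacked a sample (0 such columns). The authors' folds were turned, by their sign against the rlog means, to the first-named group minus the other.

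The 13094 genes whose mean rlog reached 5 entered limma 3.58.1 in R 4.3.3, in 1 fit of 6 libraries with a term per group, a mean-variance trend and Benjamini-Hochberg adjustment at 0.05. The fit had 3 residual degrees of freedom and a prior of 4.6. Errors of differences are limma standard errors, and errors of means are SDs. The log2 of summed level adds linear values over a list. The procedure was tested on simulated data. Member coordinates are those of the table, and for 33 of 34 the listed transcript has the same coordinates in GENCODE M21 (GRCm38). A member was described in full where its unadjusted limma p or the authors' adjusted p was under 0.05, or where it was among the 3 highest or 3 lowest differences; 7 members (Cybb, Cyba, Nox4, Nfe2l2, Keap1, Mt1, Mt2) were always named, and up to 3 genes with the smallest p were taken from each other list, of which some are named. The members and lists were chosen with earlier results of these data known. Alternatives were another filter, no trend, a replicate block, centred libraries, library weights, a fit of only the groups compared and leaving out each library. Depth is unknown, so no interval for counting error is given.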

Additional observations from a re-analysis of the deposited data

How the results depend on the processing

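Limma called no member in any comparison under any alternative except leaving out a T2D dnMCUb library. Members called in T2D dnMCUb against control ran from 0 to 3 over the leave-one-out fits: Cat without T2D dnMCUb 1, where 89 genes (0.68% of all tested) were called, and Sod3, Gpx3 and Nox4 without T2D dnMCUb 2, where 743 genes (5.67%) were. In each of these fits T2D dnMCUb was 1 library, assumed to vary like the other groups. Counts of called genes were less steady. For T2D dnMCUb against control, 9 genes were called. The count was 0 with no filter on low values, with no mean-variance trend, with each library centred on its median, with the replicate block and with only the groups compared, was 16 with library weights, and ran from 0 to 743 when 1 library was left out. In T2D empty vector against control, 0 genes were called. The count was 5 with library weights and 30 with only the groups compared, and ran from 0 to 30 when 1 library was left out (30 without either T2D dnMCUb library, 1 without control 2). In T2D dnMCUb against T2D empty vector, 0 genes were called, and 0 to 14 when 1 library was left out (14 without T2D dnMCUb 1). The cause of these moves was not tested.

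The labels give no shared animal or batch by which replicate numbers would pair the libraries, and the main fit did not use these numbers. Deviations of same-numbered libraries correlated at -0.511 between T2D dnMCUb and T2D empty vector, -0.0876 between T2D empty vector and control and -0.0133 between T2D dnMCUb and control. With 2 libraries in a group, crossing the numbers of 1 group turns the sign of such a value. The correlations therefore cannot show whether libraries are paired. The replicate block called 0 genes in all 3 comparisons, and with the numbers crossed in T2D dnMCUb it called 0 in T2D dnMCUb against T2D empty vector.

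Leaving out 1 library turned the sign of the difference for 25 of 34 members in T2D dnMCUb against T2D empty vector, 14 of 34 in T2D empty vector against control and 19 of 34 in T2D dnMCUb against control. In T2D dnMCUb against T2D empty vector, Cat ran from -0.143 to 0.0773, Xdh from -0.00819 to 0.197 and Sod3 from -0.0795 to 0.225. Other ranges there were -0.0764 to 0.0403 for Keap1, -0.0307 to 0.13 for Cybb, -0.0978 to 0.175 for Mt1, -0.00625 to 0.331 for Gpx3 and -0.217 to 0.473 for Nox4. In T2D empty vector against control they were -0.0285 to 0.0143 for Keap1, -0.111 to 0.155 for Mt1 and -0.00608 to 0.225 for Nox4. For T2D dnMCUb against control they were -0.0351 to 0.0685 for Cyba, -0.00893 to 0.0621 for Mt2, -0.0835 to 0.0332 for Keap1, -0.107 to 0.583 for Nox4 and -0.0758 to 0.197 for Mt1. The median member difference ran from -0.0412 to 0.0356 in T2D dnMCUb against T2D empty vector, from 0.00242 to 0.0716 in T2D empty vector against control and from 0.00527 to 0.0258 in T2D dnMCUb against control.

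Each group held 2 libraries, and rlog values understate folds. Control hearts differ from both diabetic groups in diet, streptozotocin and virus, and these cannot be told apart.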
